A study of Mus musculus with 4 samples.

Results

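The genes described here are 33 genes of the complement and blood clotting cascades, 15 of complement and 18 of clotting, in livers of mice with a ligated bile duct. They were chosen by name, and the data are the open-chromatin peaks that the authors' peak annotation assigns to them as promoter or distal peaks. A promoter peak is one that the annotation places at a gene's start, and a distal peak is one that it links to the gene from inside it or from nearby. Of 25458 genes with such a peak in either library, these are 33. All 33 had a peak in the Mertk knockout library, and 24 had one in the wild-type library. In all, 86 assignments of a peak to one of these genes were made in wild type and 219 in the knockout.

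Both groups had undergone bile duct ligation, which dams bile up in the liver and brings on cholestasis and fibrosis. One group was wild type and the other was a Mertk knockout, a mouse without a receptor kinase that macrophages use to engulf dying cells. Nuclei were taken from frozen liver, and chromatin accessibility was read with the ATAC part of the 10x Genomics Multiome assay, in which a transposase cuts open DNA inside nuclei. Each genotype had 1 ATAC library, and the labels give neither the number of animals behind a library, nor their age, nor the time after ligation, nor the deleted part of Mertk. With 1 library per genotype there was no replicate, so no test of any difference was possible and every value below describes these libraries.

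Complement is a set of plasma proteins that tag microbes and debris, split each other in sequence and end in a pore in the target membrane. Clotting is a chain of plasma proteases that ends in thrombin, which turns fibrinogen into fibrin, while plasmin later dissolves the clot. Most of these proteins are made by hepatocytes, with von Willebrand factor and factor VIII made mainly by endothelial cells.

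The wild-type library held 5828 called nuclei with 40858512 ATAC fragments and 72302 peaks, and the knockout library 5339 nuclei with 83996145 fragments and 106319 peaks. The knockout library thus had 2.06 times the fragments and 1.47 times the peaks. The 2 libraries shared 44 called barcodes. Mertk itself had 10 wild-type and 13 knockout peaks, which do not check the genotype, since a promoter can stay open at a disrupted allele. The peak lists pool all nuclei of a library, so fewer nuclei of a type and less open chromatin per nucleus cannot be told apart in any value below. The part of depth in the differences between libraries was not tested.

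Complement and clotting genes had more peaks in the knockout library. Of the 33 genes, 28 had more peaks there, against 60.3% of all genes with a peak. The 2 genes with fewer were C4b and F7, against 16.2% of all genes, and C2, Cfb and C8g had equal numbers. In wild type, 9 genes lacked any peak that the knockout library had, namely Mbl2, C8a, Klkb1, Kng1, Kng2, F10, Fgb, Fgg and F13b. That pattern held for 13% of all genes. With at least 5 knockout peaks asked for, it held for Mbl2, C8a, Klkb1, Kng1 and Kng2, and for 1.75% of all genes. Clotting gave 7 of the 9 and complement 2.

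**Figure D1:**
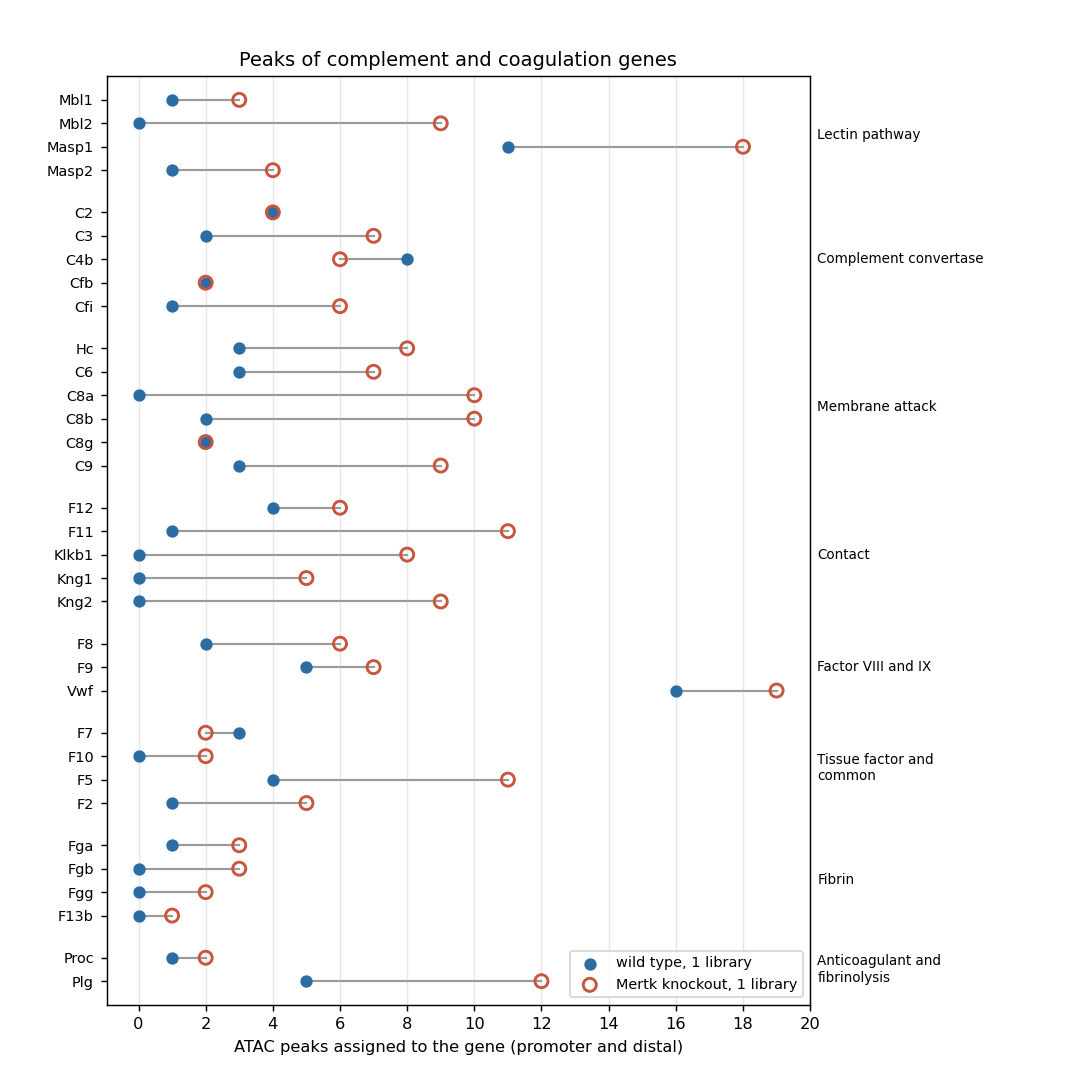
Number of promoter and distal ATAC peaks (x axis) assigned to each of the 33 genes (y axis, grouped by role) in the wild-type library (filled blue) and the Mertk knockout library (open red), 1 library each. Lines join the values of a gene, and the open red circle lies to the right of the blue one for 28 genes and to its left for C4b and F7.

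Promoters differed in the same direction. For 12 of the 33 genes both libraries had a promoter peak, against 56.2% of all genes. For 20 genes it was present in the knockout library alone, against 10.6% of all genes, and for 0 in the wild-type library alone, against 2.19%. These 20 were 7 complement and 13 clotting genes. Hc, the gene of complement C5, was the one gene with a promoter peak in neither library.

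Adding up the lengths of a gene's promoter and distal peaks gives its accessible length. Where the mean of the libraries reached 2 kb, knockout was divided by wild type on the log2 scale, after a pseudocount of 1 kb. It was centred by subtracting the median over all such genes, 0.39, so that 0 stands for the median gene. A gene at or beyond 1 or -1 was called higher or lower, by size and not by a test. Of the 33 genes, 22 reached the minimum. Of these, 7 were higher in the knockout library, against 10.3% of the 14692 genes measured, and 0 were lower, against 4.08%. Without centring 14 were higher (19.6% of all genes) and 0 lower (1.34%), and with a minimum of 4 kb 3 of 13 were higher (8.58% of all genes) and 0 lower (3.46%).

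The higher genes were Mbl2, Cfi, C8a, C8b, F11, Klkb1 and Kng2. Mbl2, C8a, Klkb1 and Kng2 had no wild-type peak, so they reached the minimum through the knockout library alone and the size of their ratio depends on the pseudocount. The median of the 22 ratios was 0.75, and it was 0.69 over the 18 measured genes with a wild-type peak. Of the 15 genes between the limits, 11 lay above the median gene and 4 below it. The genes next to the limit were C3 at 0.98, F2 at 0.95 and F5 at 0.94 just inside, and Cfi at 1.33 just outside.

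**Figure D2:**
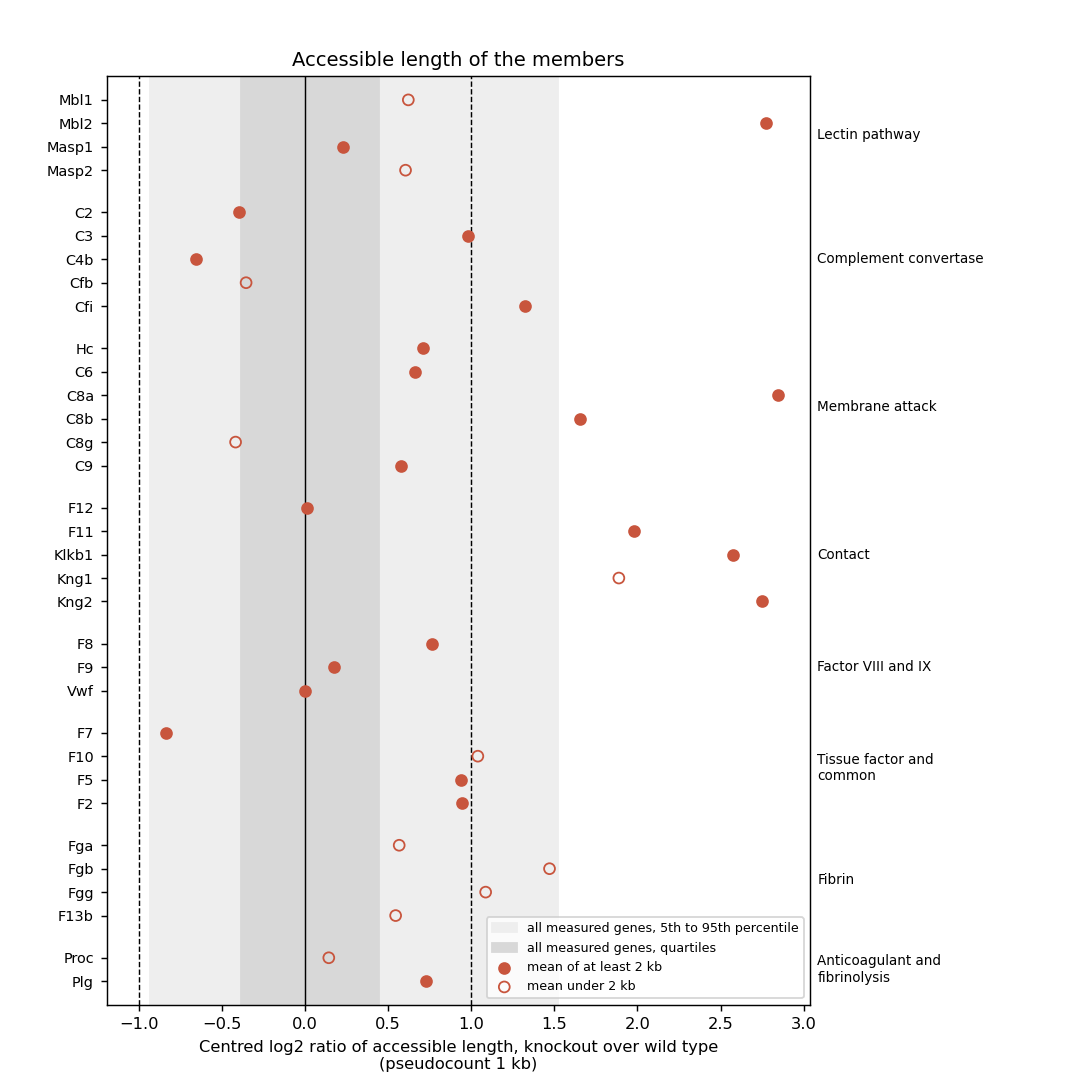
Centred log2 ratio of accessible length, knockout over wild type with a pseudocount of 1 kb (x axis), for each gene (y axis, by role), as filled points for a mean of at least 2 kb and open points below it. Grey bands span the quartiles (-0.38 to 0.45) and the 5th to 95th percentiles (-0.93 to 1.52) of all measured genes, dashed lines mark 1 and -1, and Mbl2, C8a, Klkb1 and Kng2 lie farthest to the right.

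The lectin pathway starts complement from sugars on microbial surfaces. Its recognition proteins are the mannose-binding lectins, of which Mbl2 encodes one and Mbl1 the other. Mbl2 (chromosome 19, 30232906 to 30239687) had no wild-type peak and 9 knockout peaks, which covered 7.96 kb. The centred log2 ratio was 2.77. Its 9 knockout peaks ran from -27.2 kb (upstream) to 14.5 kb (downstream) of the gene's start, and 1 lay over the start itself. The 250 bases before that start are shown because no open region was called over them in wild type and one was in the knockout; they come from RefSeq on GRCm38.p6 (plus strand, chr19:30232678-30232927) and hold none of the motifs named further on.
Mbl2: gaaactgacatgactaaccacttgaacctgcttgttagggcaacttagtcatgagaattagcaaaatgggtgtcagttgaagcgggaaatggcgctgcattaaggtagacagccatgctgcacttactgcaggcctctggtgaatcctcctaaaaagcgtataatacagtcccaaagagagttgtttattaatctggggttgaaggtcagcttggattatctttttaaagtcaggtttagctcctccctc

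Mbl1 had 1 wild-type and 3 knockout peaks, of 0.899 and 2.84 kb, and its promoter peak was in the knockout library alone. Masp1 and Masp2 encode the proteases that the lectins activate. Masp2 had 1 and 4 peaks (0.857 and 2.71 kb), and both of its promoter peaks were called in the knockout library. Masp1 had many peaks in both libraries, 11 and 18, for 9.66 and 15.4 kb and a ratio of 0.23, and each of these peaks was also assigned to another gene. Every one of the 4 lectin pathway genes thus had its promoter peak in knockout chromatin alone.

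Of the complement groups, the convertase genes had the smallest factor of knockout over wild-type accessible length, 1.54, against 2.53 for the lectin pathway. They also had the largest share of regions in wild type alone, 23.3% of 30, against 15.8% over all genes. They encode the proteins that form the C3-cleaving enzymes, with Cfi encoding the protease that breaks those enzymes down. All 5 had a promoter peak in both libraries. C3, the central protein of the cascade (chromosome 17, 57203967 to 57228136), had 2 wild-type peaks over 1.73 kb and 7 knockout peaks over 6.06 kb. Both wild-type peaks of C3, at the promoter and 8.74 kb inside the gene, overlapped knockout peaks, and 5 further regions were called in the knockout library alone. Its ratio was 0.98. The upstream sequence is shown as the case of a promoter open in both libraries (minus strand, GRCm38.p6, chr17:57228137-57228386), with a match to the CEBP motif in capitals.
C3: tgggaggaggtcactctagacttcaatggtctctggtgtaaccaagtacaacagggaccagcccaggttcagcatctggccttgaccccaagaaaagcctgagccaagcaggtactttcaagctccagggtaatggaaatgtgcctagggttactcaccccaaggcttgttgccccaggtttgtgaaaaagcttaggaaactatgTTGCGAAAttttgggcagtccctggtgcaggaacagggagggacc

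Cfi was the convertase group's one gene past the limit, with 1 wild-type peak of 0.838 kb against 6 knockout peaks of 5.05 kb and a ratio of 1.33. C2 and C4b encode the parts of the classical and lectin convertase. C2 had 4 peaks in each library and 3.54 kb in both, a ratio of -0.39, but its promoter peaks did not overlap: the wild-type one lay 1.43 kb upstream of the start and the knockout one over it. C4b had 8 and 6 peaks, 6.59 and 5.32 kb, and a ratio of -0.66, and 4 of its regions were in the wild-type library alone. Cfb, the factor of the alternative convertase and a neighbour of C2, had 2 peaks in each library (1.73 and 1.80 kb) and lay under the minimum.

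The membrane attack complex is the pore of C5 to C9 that complement puts into a target membrane. Of the complement groups its genes had the largest share of regions in the knockout library alone, 74.5% of 51 against 42.7% over all genes, while 15.7% were in both libraries, against 41.5%. C8a, which encodes the alpha chain of C8 (chromosome 4, 104815679 to 104876487), had 0 wild-type and 10 knockout peaks, the latter over 8.44 kb, and a ratio of 2.85. C8b, the beta chain gene beside it (104766317 to 104804548), had 2 and 10 peaks, 1.32 and 8.6 kb, and a ratio of 1.66. The 2 wild-type peaks of C8b lay at -63.4 and -68.4 kb from the start, upstream, and overlapped no knockout peak. No wild-type peak therefore lay in the 130 kb that hold both genes with 10 kb on either side, where 14 knockout peaks were called.

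C8g, the gene of the third C8 chain, lies on another chromosome and did not share this pattern. It had 2 peaks in each library (1.84 and 1.79 kb), all shared, and was the single gene of the 33 without a region in the knockout library alone. C9, which forms the wall of the pore, had 3 and 9 peaks (2.92 and 6.69 kb, ratio 0.58), with 2 promoter peaks in the knockout library and 0 in wild type. C6 had 3 and 7 peaks (2.50 and 6.27 kb, ratio 0.66) and a promoter peak in both. Hc had 3 and 8 peaks (2.79 and 7.15 kb, ratio 0.71), the nearest of them a knockout peak that began 566 bp downstream of the start.

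Few regions of the contact group were called in wild type. The group starts the intrinsic pathway: F12 and Klkb1 encode proteases that activate each other, Kng1 and Kng2 encode kininogens, their cofactors and the source of bradykinin, and F11 encodes the next protease. Over the group, 5 distinct wild-type peaks faced 36 knockout peaks, a ratio of 7.2 against 1.47 over all genes, and 86.5% of 37 regions were in the knockout library alone, against 42.7%. All 5 genes had a promoter peak there and 0 in wild type.

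F11 (chromosome 8, 45240659 to 45262055) had 1 wild-type peak of 0.939 kb and 11 knockout peaks of 9.03 kb, a ratio of 1.98. Its wild-type peak lay 22.4 kb downstream of the start and was shared. Klkb1, the prekallikrein gene next to it (45266688 to 45294835), had 0 and 8 peaks, the latter over 6.81 kb, and a ratio of 2.57. A set of 3 knockout regions was assigned to both genes. In the 74.2 kb that hold the pair with 10 kb on either side, 1 wild-type and 15 knockout peaks were called. The 250 bases upstream are shown for both, since both promoter peaks were called in the knockout library alone (both minus strand, GRCm38.p6, F11 at chr8:45262032-45262281 and Klkb1 at chr8:45294836-45295085). Capitals mark a FOXA and a CEBP match in F11, and a CEBP, a TATA box and a FOXA match in Klkb1.
F11: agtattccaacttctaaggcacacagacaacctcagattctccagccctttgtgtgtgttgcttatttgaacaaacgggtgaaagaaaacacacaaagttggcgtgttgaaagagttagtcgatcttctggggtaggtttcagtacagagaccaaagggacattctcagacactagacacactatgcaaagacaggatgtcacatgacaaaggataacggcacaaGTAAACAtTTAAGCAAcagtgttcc
Klkb1: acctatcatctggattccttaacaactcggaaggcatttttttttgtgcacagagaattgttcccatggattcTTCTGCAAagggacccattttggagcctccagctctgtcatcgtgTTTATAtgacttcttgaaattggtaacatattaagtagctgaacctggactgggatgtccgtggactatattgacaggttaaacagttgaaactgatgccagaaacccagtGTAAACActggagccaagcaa

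Kng2 (chromosome 16, 22985852 to 23029101) had 0 wild-type and 9 knockout peaks over 7.81 kb, a ratio of 2.75. Kng1, next to it (23058220 to 23082078), had 0 and 5 peaks over 3.86 kb, just under the minimum as a mean. The 116 kb around the pair held 1 wild-type peak, assigned to neither, and 16 knockout peaks, with no overlap between the libraries. F12 was the exception in this group, with 4 and 6 peaks (3.41 and 4.85 kb) and a ratio of 0.02, at the median gene, although its promoter peak was also in the knockout library alone. So 4 of the 5 contact genes had at most 1 wild-type peak, and F12 had 4.

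The genes of factor VIII, factor IX and von Willebrand factor, the carrier of factor VIII, had 1.55 times the wild-type accessible length in the knockout library, near the 1.47 of all genes. Vwf (chromosome 6, 125552948 to 125686679) had the largest number of peaks of the 33 genes in both libraries, 16 and 19, over 12.6 and 16.8 kb, and a ratio of 0.00. Of its regions, 10 were in both libraries, 6 in wild type alone and 9 in the knockout library alone. Its promoter peak was called in the knockout library alone. F8 had 2 and 6 peaks (1.71 and 5.04 kb, ratio 0.76), with a promoter peak in both libraries and a further one in the knockout library. F8 has more than 1 annotated start. The RefSeq span of this minus-strand gene begins at 75382738, inside the shared promoter peak, which was also assigned to another gene. The start used here for positions lies further inside the gene, and the shared peak was centred 2.41 kb upstream of it in wild type. Within 1 kb of that inner start a peak was called in the knockout library alone, while the outer start had a peak in both libraries.

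F9, the factor IX gene on chromosome X (59999329 to 60030760), had similar peak numbers at different places. It had 5 wild-type peaks over 3.76 kb and 7 knockout peaks over 6.05 kb, a ratio of 0.17. A single region, 2.27 kb downstream of the start in wild type, was shared, while 4 regions were in wild type alone and 6 in the knockout library alone. The promoter peak belonged to the latter. Its upstream sequence, plus strand on GRCm38.p6 at chrX:59999214-59999463, is shown with a STAT and a CEBP match in capitals.
F9: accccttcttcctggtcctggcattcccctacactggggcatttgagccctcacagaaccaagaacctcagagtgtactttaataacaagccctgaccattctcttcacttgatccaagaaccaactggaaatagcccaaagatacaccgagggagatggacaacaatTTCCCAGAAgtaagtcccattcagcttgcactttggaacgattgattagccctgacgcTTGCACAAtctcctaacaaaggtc

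The tissue factor and common pathway leads from factor VII through factors X and V to prothrombin. F7 had 3 wild-type and 2 knockout peaks (2.69 and 1.72 kb) and the lowest ratio of the measured genes, -0.83, yet its promoter peak was in the knockout library alone. F10, beside F7, had 0 and 2 peaks, and both of the knockout peaks (1.70 kb) were promoter peaks. F5, the cofactor gene, had 4 and 11 peaks over 3.36 and 9.98 kb, a ratio of 0.94, and a promoter peak in both libraries. F2, the prothrombin gene, had 1 and 5 peaks (0.876 and 3.74 kb, ratio 0.95). The wild-type peak of F2 began 152 bp from the start and was annotated as distal, but it overlapped the knockout promoter peak, so the absence of a wild-type promoter peak rests on that limit for F2.

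Fibrinogen, the protein of the clot, is built from 3 chains encoded side by side by Fgg (83007724 to 83015056), Fga (83026153 to 83033627) and Fgb (83042246 to 83049863) on chromosome 3. Fga had 1 wild-type peak of 0.894 kb, at its promoter, and 3 knockout peaks of 2.69 kb. Fgb had 0 and 3 peaks (2.64 kb) and Fgg 0 and 2 (1.79 kb). The single wild-type promoter peak of the locus was thus that of Fga, while all 3 genes had one in the knockout library. Each of the 3 lay under the length minimum, so none was called. Across the 62.1 kb of the locus with 10 kb on either side, 2 wild-type peaks, both shared, and 13 knockout peaks were called. F13b, which encodes the carrier subunit of the enzyme that crosslinks fibrin, had 0 wild-type peaks and 1 knockout peak, at its promoter (0.917 kb).

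The 3 fibrinogen promoters are set side by side because they serve 1 protein and differed in wild type, where Fga alone had a peak. The sequences are the 250 bases upstream on GRCm38.p6 from RefSeq, for Fga on the plus strand (chr3:83025903-83026152), for Fgb on the minus strand (chr3:83049864-83050113) and for Fgg on the plus strand (chr3:83007474-83007723). Capitals mark a STAT, a CEBP and an HNF1 match in Fga and a STAT and a CEBP match in Fgb. Fgg held no match of the motifs searched.
Fga: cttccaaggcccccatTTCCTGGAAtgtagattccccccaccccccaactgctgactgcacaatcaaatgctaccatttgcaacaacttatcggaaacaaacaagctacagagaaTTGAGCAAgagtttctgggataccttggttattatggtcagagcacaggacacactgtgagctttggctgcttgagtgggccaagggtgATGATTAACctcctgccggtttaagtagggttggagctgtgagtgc
Fgb: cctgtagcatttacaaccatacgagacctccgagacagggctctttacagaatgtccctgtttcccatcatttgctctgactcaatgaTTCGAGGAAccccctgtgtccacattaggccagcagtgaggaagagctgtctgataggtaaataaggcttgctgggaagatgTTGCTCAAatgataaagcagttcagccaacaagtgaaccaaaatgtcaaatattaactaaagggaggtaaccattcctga
Fgg: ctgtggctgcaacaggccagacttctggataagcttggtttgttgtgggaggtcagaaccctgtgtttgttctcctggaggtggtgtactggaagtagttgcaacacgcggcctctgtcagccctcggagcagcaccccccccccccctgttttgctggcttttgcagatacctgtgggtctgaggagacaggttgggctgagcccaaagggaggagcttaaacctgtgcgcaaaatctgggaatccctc

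On the side that limits clots, Plg encodes plasminogen, the precursor of plasmin, and Proc encodes protein C, which inactivates factors V and VIII. Plg (chromosome 17, 12378609 to 12419384) had 5 and 12 peaks over 4.07 and 10.1 kb, a ratio of 0.73, and 4 of its 5 wild-type peaks were shared. Proc had 1 and 2 peaks (0.861 and 1.70 kb), all at promoters. Both genes had a promoter peak in each library.

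The cascades as wholes gave similar values. The 15 complement genes covered 37.2 kb in wild type against 89.6 kb in the knockout, and the 18 clotting genes 35.1 and 97.2 kb. Medians over the 11 measured genes of each were 0.71 for complement and 0.76 for clotting, against 0 over all genes. By the size rule 4 complement and 3 clotting genes of 11 each were higher, against 10.3% of all measured genes, and 0 of either were lower, against 4.08%. A promoter peak was called for 7 complement genes in wild type and 14 in the knockout, and for 5 and 18 clotting genes, against 14854 and 17006 of the 25458 genes in all. Whether the cascades differ beyond error could not be tested with these libraries.

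When overlapping peaks were merged and each region was counted once, the 33 genes had 241 regions. Of these, 56 were in both libraries, 29 in wild type alone and 156 in the knockout library alone. The last made up 64.7% of the regions (exact Clopper-Pearson 95% interval 58.3 to 70.8%, counting error only), against 42.7% of the 124379 regions of all genes. Among 39 promoter regions 66.7% were in the knockout library alone, against 19.9% of promoter regions of all genes. For 204 distal regions the shares were 63.7% and 46.2%. The distance from the background was thus larger at promoters than at distal regions.

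Of 85 distinct wild-type peaks, 65.9% overlapped a knockout peak, against 72.5% over all genes. For the 215 knockout peaks the share that overlapped a wild-type peak was 27.4%, against 49.5%. Both shares lay below those of all genes, and that of the knockout peaks by more. The knockout peaks covered 183 kb and the wild-type peaks 71.5 kb, a factor of 2.56 against 1.47 for all genes. By role, the share of regions in the knockout library alone, 42.7% over all genes, ranged from 45.2% for factors VIII and IX with Vwf to 88.9% for the fibrin genes, which had 9 regions.

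**Figure D3:**
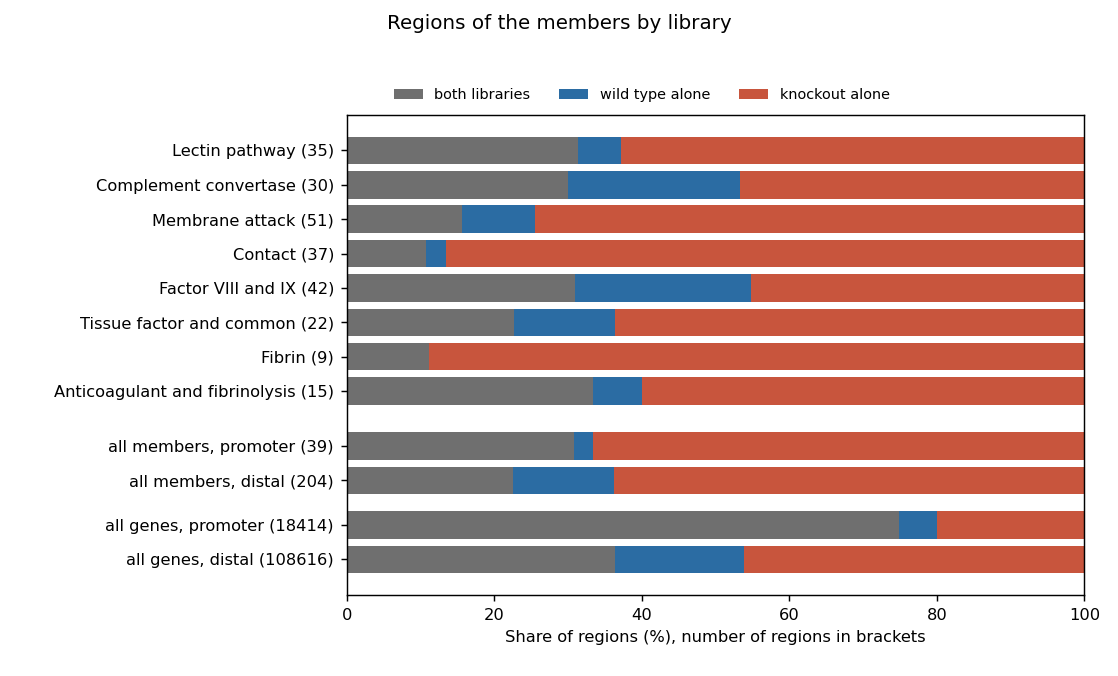
Share of merged regions (x axis, percent) found in both libraries (grey), in wild type alone (blue) and in the Mertk knockout library alone (red), for each role, for all 33 genes ("all members") and for all genes, with the number of regions in brackets. Regions in the knockout library alone make up 66.7% of the 33 genes' promoter regions and 19.9% of promoter regions of all genes.

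Among distal regions to which the annotation gives a distance other than 0, those in the knockout library alone lay nearer to these genes than to genes in general. Distal peaks with a distance of 0 were left out, for these genes and for all genes. The left-out knockout-alone peaks include far ones, 59.6 kb (C8a) and 105 kb (Vwf) from the start, and near ones, 1.72 kb (Masp1). The medians thus do not describe all distal regions. In the knockout library alone, 105 region-gene pairs had a median of 8.98 kb, and 32.4% lay within 5 kb. Over all genes the same class had a median of 17.6 kb, with 18.5% within 5 kb. Distal regions in both libraries had a median of 13.4 kb for the 33 genes (30 pairs) and 15.5 kb for all genes. The 19 pairs in wild type alone had a median of 21.5 kb, against 17.5 kb for all genes. Of them, 36.8% (7 pairs) lay within 5 kb, against 19.4% for all genes. A share within 5 kb above that of all genes was thus not particular to the knockout-alone regions. Peak widths gave no such contrast: the median was 878 bp for the knockout-alone peaks of the 33 genes and 876 bp for those of all genes.

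**Figure D4:**
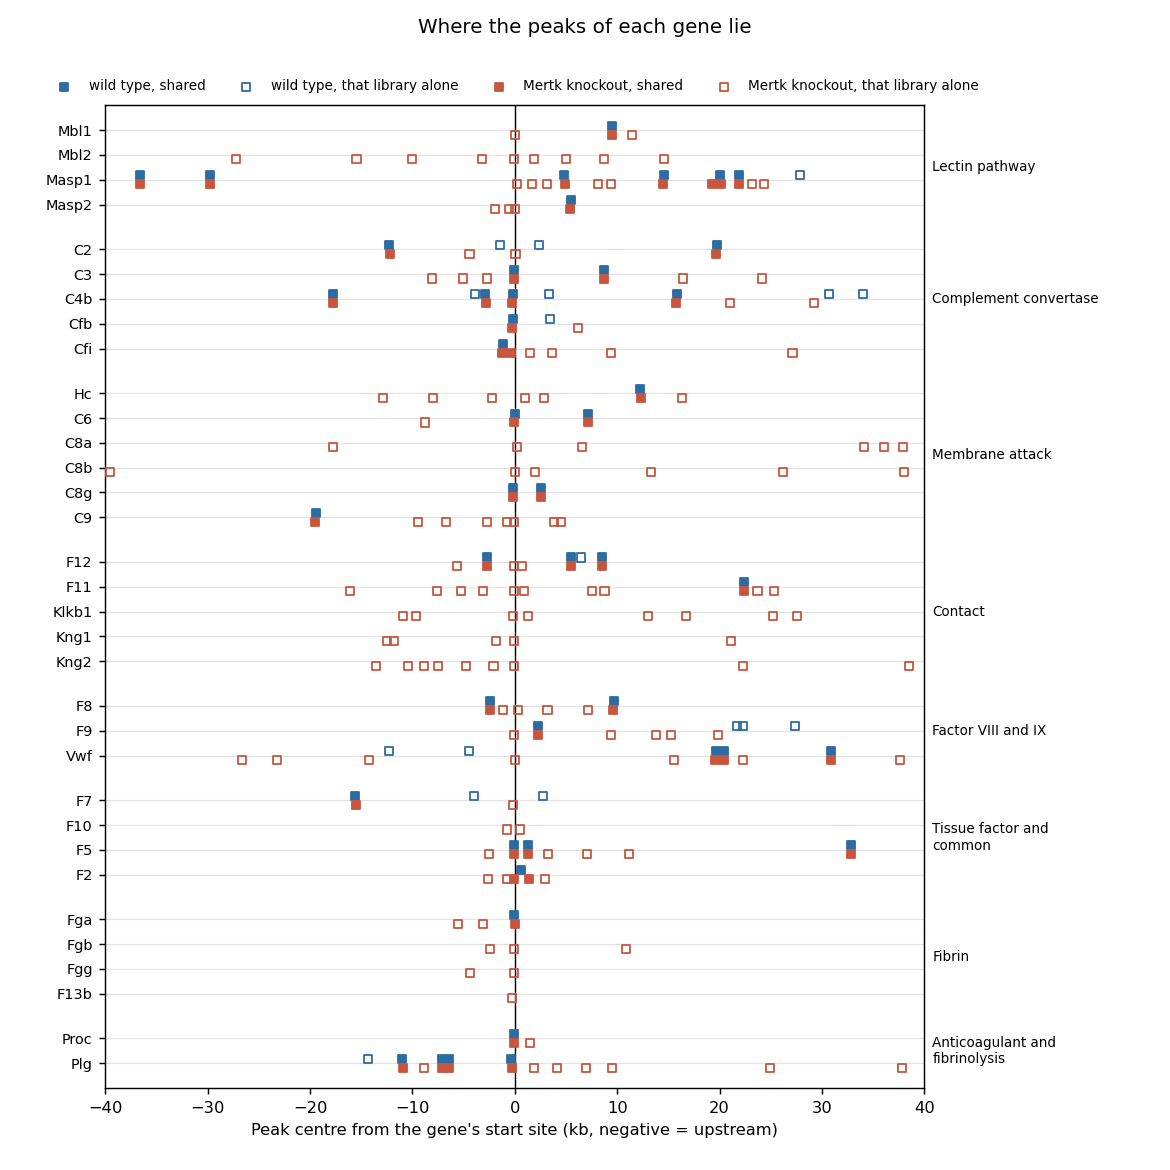
Centres of the promoter and distal peaks of each gene relative to its start site (x axis, kb, upstream negative, 40 kb to either side shown), wild type in blue above and Mertk knockout in red below, filled where the peak overlaps one of the other library. Open red squares, the knockout-alone peaks, stand at or beside the start of most genes, while Masp1, C4b, F12 and Plg also carry several shared peaks.

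Sequence at the starts was described from RefSeq windows of 300 bases, 250 before and 50 after a start. Of the 33 genes, 24 matched, with 25 windows. Those without a window were C2, C4b, Cfb, Cfi, Proc and Plg, with a promoter peak in both libraries, and Masp1, Kng1 and Vwf, with one in the knockout alone. The shares below therefore leave out many of the promoters open in both libraries. A peak overlapped the window in both libraries for 5 windows, in the knockout library alone for 17 (68.0%, against 8.33% of 32851 windows of all genes), and in neither for 3. The motifs searched on both strands were CEBP (TTGCNNAA), FOXA (TGTTTAC), HNF1 (GTTAATNAT), HNF4 (CAAAGTCC), STAT (TTCNNNGAA), ETS (ACAGGAAG) and the TATA box (TATAAA), and matches of different motifs could overlap. A match says only that these letters are present.

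The CEBP letters were in 8 of the 25 windows (32.0%), those of C3, C9, F11, F9, Fga, Fgb, Klkb1 and Kng2, against 10.8% of all windows and 15.4% of all windows with a knockout-alone peak. The HNF1 letters were in 3 windows (12%), those of F13b, Fga and Hc, against 0.801% and 2.37%. STAT letters were in 5 windows (20%, against 8.30% and 7.34%), those of C8a, F9, Fga, Fgb and Masp2. FOXA letters were in 2 (8%, against 3.65% and 4.93%), F11 and Klkb1. TATAAA was in 3 windows (12%, against 13.6% and 12.9%). HNF4 and ETS letters were in 0 of the 25. HNF4 letters were in 1.42% of all windows and 3.11% of those with a knockout-alone peak, and ETS letters in 3.58% and 4.06%. The windows of the 33 genes had a median GC content of 48.7%, against 52.7% over all windows, which bears on how often such letters occur by base composition, and its part was not tested.

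Other genes of the cascades were taken from 4 lists of 55 genes in all. Of these, 53 had a peak and 34 reached the minimum, with 8 higher, 4 lower and a median of -0.02. The list of anticoagulants and fibrinolysis regulators came nearest to the genes above, with 39 and 84 peaks, a median of 0.75 and 5 of 11 measured genes higher, of which Serpinc1, Serpina10 and Hrg had no wild-type peak and reached the minimum through the knockout library alone. Serpinc1, the antithrombin gene, had 0 and 5 peaks (ratio 1.98), Serpina10, the gene of the protein Z inhibitor, 0 and 6 (2.25), and Hrg, the histidine-rich glycoprotein gene, 0 and 5 (2.02). Serpind1, for heparin cofactor II, had 1 and 5 (1.11), and Cpb2, for an inhibitor of fibrinolysis, 1 and 6 (1.19). Promoter peaks of Serpinf2 (antiplasmin) and Proz (protein Z) were in the knockout library alone, with 0 wild-type peaks against 4 and 3.

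Complement regulators and receptors went both ways, with 3 of 13 measured genes higher, 3 lower and a median of -0.12. The higher ones included Clu, the clusterin gene (1 and 6 peaks, 1.22), and Cr2, a receptor of B cells (2 and 8, 1.15). The lower ones were Vsig4, a receptor of resident macrophages (8 and 1, -2.46, promoter peak in wild type alone), Itgax (7 and 3, -1.35) and Itgam (15 and 8, -1.17), integrin receptors of myeloid cells, where Itgam was named after its value was seen. C4bp and Vtn, for the C4b-binding protein and vitronectin, had 0 wild-type peaks against 3 and 2, with promoter peaks in the knockout library.

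Among other clotting and platelet genes 1 of 8 measured was lower, 0 were higher and the median was -0.11. The lower gene was F13a1, for the catalytic subunit of factor XIII, with 7 and 2 peaks (-1.69). It stands opposite to F13b, the carrier subunit, with its 0 and 1 peaks. The platelet integrin gene Itga2b had 6 and 7 peaks (-0.21). The thrombin receptor genes F2rl2 and F2rl3 had equal numbers, 3 in each library (-0.32, promoter peak in wild type alone) and 5 in each (-0.45). Other initiators of complement had 17 and 26 peaks over 11 genes, with C1ra at 4 and 3 (-0.59), Fcna at 3 and 5 (0.24) and Colec11, a collectin gene, at 0 and 3.

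Markers of hepatocytes, stellate cells and cholangiocytes moved with these values. Hepatocyte markers had 40 and 148 peaks over 20 genes, with 11 of 19 measured genes higher, 0 lower, a median of 1.18, and a promoter peak for 2 genes in wild type and 20 in the knockout. Of the 20, 7 had no wild-type peak in a library labelled liver, namely Alb, Apoc3, Cps1, Cyp2e1, Cyp3a11, Cyp2c29 and Serpina1a. The other hepatocyte markers had wild-type peaks. Ttr (4 and 3 peaks, -0.69) and Ass1 (7 and 5, -0.79) went the other way, and were named after their values were seen. Stellate and fibroblast markers had 13 and 71 peaks (6 of 7 higher, median 1.85), and cholangiocyte markers 19 and 59 (4 of 8 higher, median 0.93). Endothelial markers, of the cells that make von Willebrand factor, had 161 and 265 peaks, with 0 of 19 past the limit in either direction and a median of 0.31.

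Over the genes that reached the minimum, markers of macrophages, which include resident macrophages of the liver, and of blood cells had medians below the median gene. Without the minimum the neutrophil median was 0.02 over 12 genes, of which 7 had more peaks in the knockout library and 4 fewer. Macrophage markers had 141 and 135 peaks (3 of 15 lower, median -0.42), neutrophil markers 40 and 39 (1 of 6 lower, -0.38), lymphocyte markers 30 and 18 (2 of 6 lower, -0.60) and megakaryocyte and platelet markers 17 and 15 (median -0.38), with Gp6 and Treml1 at 0 in the knockout library. The accessible length of the hepatocyte list was 33.3 kb in wild type against 124 kb in the knockout, a factor of 3.74, against 2.41 for the complement and 2.77 for the clotting genes. The part of these cell types in the differences at complement and clotting genes was not tested.

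**Figure D5:**
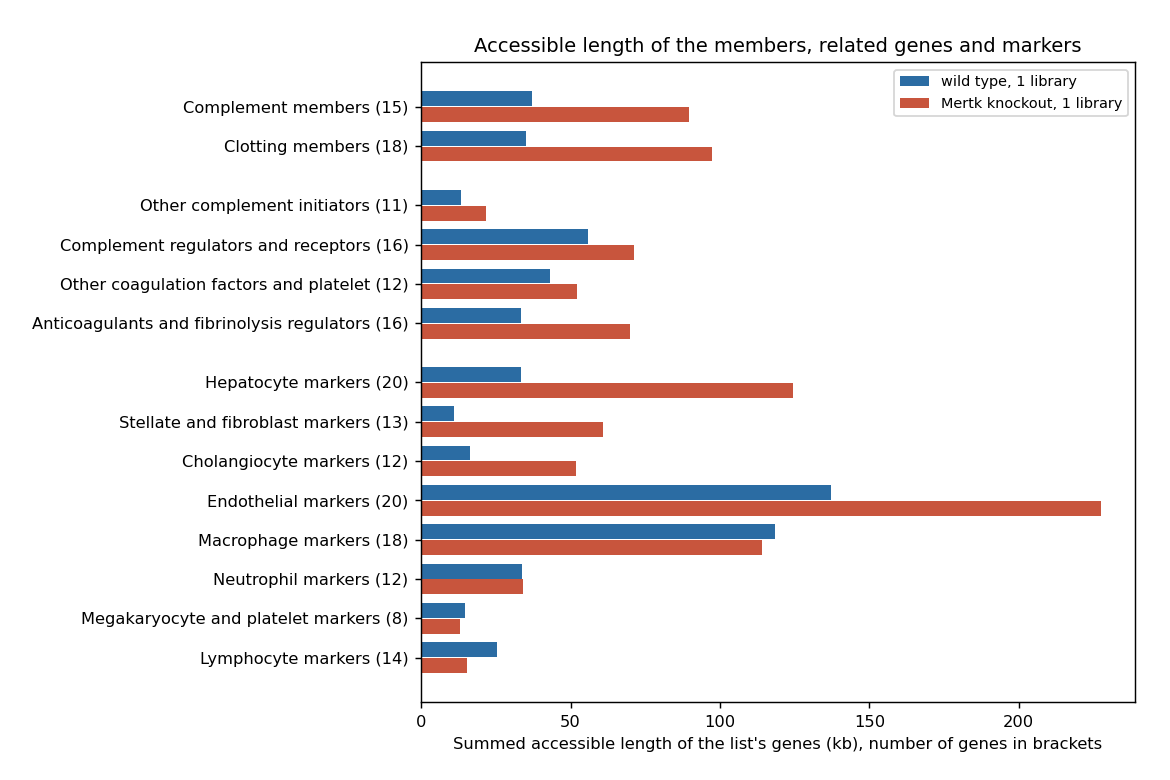
Summed accessible length (x axis, kb) of the complement and clotting genes ("members"), of the other genes of the cascades and of cell type markers, with the number of genes in brackets, in the wild-type library (blue) and the Mertk knockout library (red), 1 library each. Bars of complement (37.2 and 89.6 kb), clotting (35.1 and 97.2 kb) and hepatocyte markers (33.3 and 124 kb) are longer in the knockout library, and those of macrophage markers (118 and 114 kb) are nearly equal.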

How the data were processed

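ATAC peak lists and their annotation from 1 wild-type and 1 Mertk knockout library were used. Per the file headers, the authors ran cellranger-arc 2.0.2 on mm10, and peaks were called per library. The deposited lists give positions alone, with no score. The raw count per barcode in the deposited tables gave nuclei and depth, unnormalised judging from its whole numbers. Counts per gene and nucleus were not used here, so doublets were not treated. Overlap of at least 1 bp made peaks shared, checked against bedtools 2.31.1. The calculation of ratios was run on simulated peak numbers, with differences planted only in genes of longer accessible length. That run therefore does not cover genes near the length minimum. Gene positions and promoter windows come from RefSeq (GRCm38.p6). No genome sequence was used here, so motifs were searched in promoter windows and not in distal regions. All 33 genes are named by role. From each other list of the cascades, the naming rule takes the 4 measured genes with the largest absolute ratio and any gene whose promoter peak was in 1 library alone, and from marker lists genes with no peak in 1 library. A gene that this rule takes is not reported here. Members, lists and thresholds were chosen with earlier results of these data known. Alternatives covered the pseudocount, centring, length minimum, size limit, peak type, peak width and overlap. Calculations ran in Python 3.11.15 (scipy 1.17.1, pandas 2.3.3, numpy 2.4.6), figures in matplotlib 3.10.9.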

Additional observations from a re-analysis of the deposited data

How the results depend on the processing

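Of the 33 genes, 7 of 22 measured were higher, against 10.3% of all measured genes. The count was 14 of 22 without centring, 11 of 33 with no length minimum (11.3% of all genes) and 3 of 13 with a minimum of 4 kb (8.58%). With promoter peaks only, none of the 33 reached 2 kb, so an alternative chosen after seeing the data dropped the minimum as well. Of 32 genes, 4 were then higher (1.92% of all genes), namely Masp2, C9, F10 and F2. Each of these had 2 knockout promoter peaks and 0 in wild type. None is among the 7 above, which lay between 0.40 (Cfi) and 0.92 (C8b). With the pseudocount of 1 kb, a single knockout promoter peak against 0 fell short, as in F13b (0.917 kb, ratio 0.93). Under each alternative run 0 were lower. Without centring 19.6% of all measured genes were higher and 1.34% lower, so that of genes past the limit 93.6% were higher, against 71.6% with centring. The median of the measured genes, 0.75, was 1.14 without centring, which adds the shift of 0.39 that all genes share. Wild-type peaks without a knockout overlap numbered 29, and 16 when only peaks of at least 800 bp were asked. Ratios of C3, C4b, Cfb, F12, F9, Vwf, F7 and Plg changed sign under at least 1 alternative, F7 to 0.89 with promoter peaks only and no minimum, where it has none in wild type. Genes with 1 to 3 peaks rest on single peak calls. No paired analysis was possible because each genotype has 1 library.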
